A study of Mus musculus with 2 samples.

Results

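The 8 genes Cxcl1, Cxcl2, Cxcl3, Cxcl9, Cxcl10, Cxcl13, Cxcl16 and Pf4 were taken by symbol from the 32285 genes counted in single immune cells of injured neonatal mouse hearts. All 8 symbols were found once, and each gene had at least 1 UMI (unique molecular identifier, the tag that marks 1 captured RNA molecule) in both libraries. The question put to them was which immune cells of the heart carried each transcript, and how far the level in a cell type differed between wild-type (WT) hearts and hearts without the hyaluronan receptor LYVE-1 (Lyve1 KO, genotype Lyve1-/-, a deletion in every cell of the animal). In both groups the left anterior descending coronary artery had been ligated at P2, and hearts were collected 7 days later, so that the animals were 9 days old. Each group was 1 library of live CD45+ cells pooled from 5 hearts of either sex, and the background strain of the WT hearts of this experiment is not given in the sources used here. The study's methods assign the pooled cells to single hearts from variants in the reads (souporcell and Vireo); that assignment was not used here, and the count matrices analysed carry 1 library per genotype. A member's value in a cell type is therefore 1 number per genotype, with no test across hearts, and the 95% intervals given throughout cover counting error only.

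CXCL chemokines are small secreted proteins that bind heparan sulphate and draw leukocytes along a gradient through G protein-coupled receptors. Cxcl1, Cxcl2 and Cxcl3 encode ligands of CXCR2 and recruit neutrophils early after tissue damage, and their transcription is switched on by NF-kB downstream of toll-like receptors, interleukin-1 and tumour necrosis factor. Cxcl9 and Cxcl10 encode ligands of CXCR3, which call in activated T cells and NK cells, and answer to interferons. Cxcl13 draws B cells through CXCR5, Cxcl16 is a membrane-bound ligand of CXCR6 that is shed by the proteases ADAM10 and ADAM17, and Pf4 (CXCL4) is best known from platelet granules and is also transcribed by tissue-resident macrophages.

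Of the 8 genes, 7 lie on chromosome 5 within 5189 kb (GRCm38, GENCODE vM21), and Cxcl16 lies on chromosome 11. Pf4 (chr5:90772435-90773383, plus strand), Cxcl3 (chr5:90786103-90789600), Cxcl1 (chr5:90891241-90893115) and Cxcl2 (chr5:90903871-90905938) lie in this order on the plus strand within 133.5 kb. Cxcl9 (chr5:92321347-92328079) and Cxcl10 (chr5:92346638-92348889) are on the minus strand, Cxcl13 (chr5:95956951-95961068) is on the plus strand, and Cxcl16 (chr11:70453983-70459984) is on the minus strand. The longest run of bases shared by transcripts of Cxcl2 and Cxcl3 was 157 bases. It was longer than a 90-base read, so that reads inside it could belong to either gene. Windows of 90 bases found in both made up 2.58% of those of Cxcl2. The share among those of Cxcl3, and where on the transcripts the reads lay, were not determined. Cxcl1 shared at most 23 bases with Cxcl2 or Cxcl3.

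Promoter windows, 250 bases before to 50 bases after the start, were read from RefSeq (GRCm38.p6) for 7 of the 8 genes, all but Cxcl16, and searched on both strands for the kappaB consensus bound by NF-kB and for the interferon-stimulated response element GAAANNGAAA. The kappaB consensus was present in 4 of the 7 windows, those of Cxcl1, Cxcl2, Cxcl3 and Cxcl10, and in 4.51% of the 32851 promoters of the table. The interferon element was present in 1 of the 7, that of Cxcl10, and in 3.44% of all promoters. The stretches that hold the matches are printed 5′ to 3′ on the gene's strand, with the matches in capitals. All 4 share the kappaB consensus, and of them only Cxcl10 has the interferon element. In Cxcl1, Cxcl2 and Cxcl3 the match begins 71, 97 and 73 bases before the start, and an overlapping match on the other strand shares all but 1 of its bases. Cxcl10 has its interferon element 213 bases before the start and its kappaB matches 159 and 103 bases before it. A match describes these letters only.
Cxcl1, chr5:90891159-90891238: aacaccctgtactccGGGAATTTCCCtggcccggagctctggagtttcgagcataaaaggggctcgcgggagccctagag
Cxcl2, chr5:90903787-90903866: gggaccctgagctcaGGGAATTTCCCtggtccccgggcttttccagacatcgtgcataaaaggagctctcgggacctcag
Cxcl3, chr5:90786013-90786092: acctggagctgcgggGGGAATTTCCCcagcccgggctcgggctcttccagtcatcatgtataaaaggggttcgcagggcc
Cxcl10, chr5:92348973-92349112 (minus strand): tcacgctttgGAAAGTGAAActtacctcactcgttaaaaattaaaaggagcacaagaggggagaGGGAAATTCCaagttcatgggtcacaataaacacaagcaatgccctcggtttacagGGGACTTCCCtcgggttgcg

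The libraries held 4187 cells (WT) and 3391 cells (KO) after limits on quality and doublets, with a median of 11104 and 12909 UMIs per cell, and 9 cell barcodes occurred in both. Lyve1 itself stood at 248 CPM (UMIs of the gene per 1e+06 UMIs of the cells) in the WT library and 13.2 CPM in the KO library. The cells were clustered without the 8 genes and without the related gene lists, so that the levels of the 8 genes played no part in forming the clusters, and clusters were given names from marker genes. The 8 named classes were CCR2- macrophage-like cells (1080 in WT, 477 in KO), CCR2+ macrophage-like cells (213 and 190), monocyte-like (410 and 451), neutrophil-like (350 and 335), dendritic cell-like (60 and 39), B cell-like (428 and 494), T cell-like (302 and 340) and NK or innate lymphoid cell-like cells (81 and 101); 1263 and 964 cells kept no name. A cluster led by Sidt1, Cd8b1 and Gm2682 (101 WT and 150 KO cells) kept no name and lay outside the T cell-like class. That class included a cluster led by Arpp21, Dntt and Rag1, with 136 of its WT and 71 of its KO cells. The CCR2- class made up 25.8% of the WT cells and 14.1% of the KO cells and held 44.3% and 25.2% of all UMIs. The CCR2+ class was a single cluster led by Spp1, Mmp12 and Gpnmb. The 10 CCR2+ macrophage markers, Ccr2 and class II genes among them, summed to 18633 and 17682 CPM in it and 2837 and 3491 CPM in the CCR2- class, and every gene of that list had UMIs in both. Cells with UMIs of Y-linked genes and none of Xist were taken as male (1989 in WT, 1435 in KO) and the reverse as female (1034 and 983), so that each set came from other hearts of the pool.

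Among the named classes Pf4 was a transcript of the macrophages. In CCR2- macrophage-like cells it stood at 2882 CPM in WT (95% interval 2862 to 2902) and 2185 in KO (2161 to 2209), and in CCR2+ macrophage-like cells at 569 CPM in WT (95% interval 548 to 590.2) and 396 in KO (380.5 to 413). In monocyte-like cells, neutrophils, dendritic cells and lymphocytes it did not exceed 4.41 CPM in either library. Thinned to 5000 UMIs a cell, 97.4% (1031 of 1059 cells) of the CCR2- class carried it in WT and 95.5% (445 of 466 cells) in KO. In the CCR2+ class the shares were 41.3% (76 of 184 cells) and 32.6% (59 of 181 cells). B cell-like cells, which should lack it, gave 1.48% and 0.226%, and held 17 and 7 Pf4 UMIs in all. Without thinning the shares were 98.9% and 97.9% for the CCR2- class, at medians of 24124 and 26450 UMIs, against 3.04% and 0.810% for B cell-like cells, at medians of 10824 and 13095. The CCR2- class therefore carried Pf4 in nearly every cell, and no few cells dominated it: the 10 cells with most Pf4 held 4.0% and 9.75% of its UMIs. In the CCR2+ class the 10 cells with most held 57.9% in WT and 58.2% in KO.

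Platelets carry Pf4, and their markers were read beside it. The 8 platelet genes Itga2b, Gp9, Gp1bb, Gp1ba, Treml1, Tubb1, Gp6 and Itgb3 summed, in CCR2- macrophage-like cells, to 3.48 CPM (WT) and 3.02 CPM (KO), with 0 and 2 of the 8 at 0. In the CCR2+ class they summed to 3.76 and 5.57 CPM. Ppbp, the other platelet CXCL gene, was at 34.8 CPM (WT) and 16.4 CPM (KO) in the CCR2- class. Pf4 also stood at 2181 and 998 CPM in an unnamed cluster of shallow cells led by Il31ra, Myl9 and Gp9. The platelet genes Gp9 and Tubb1 were among the leading genes of this cluster. An unnamed cluster led by Hbb-bs was at 963 CPM in WT and 628 in KO, and one led by Ighv1-78 at 378 and 0 CPM. Cells that kept no name held 2.29% of all Pf4 UMIs in WT and 1.62% in KO.

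**Figure D1:**
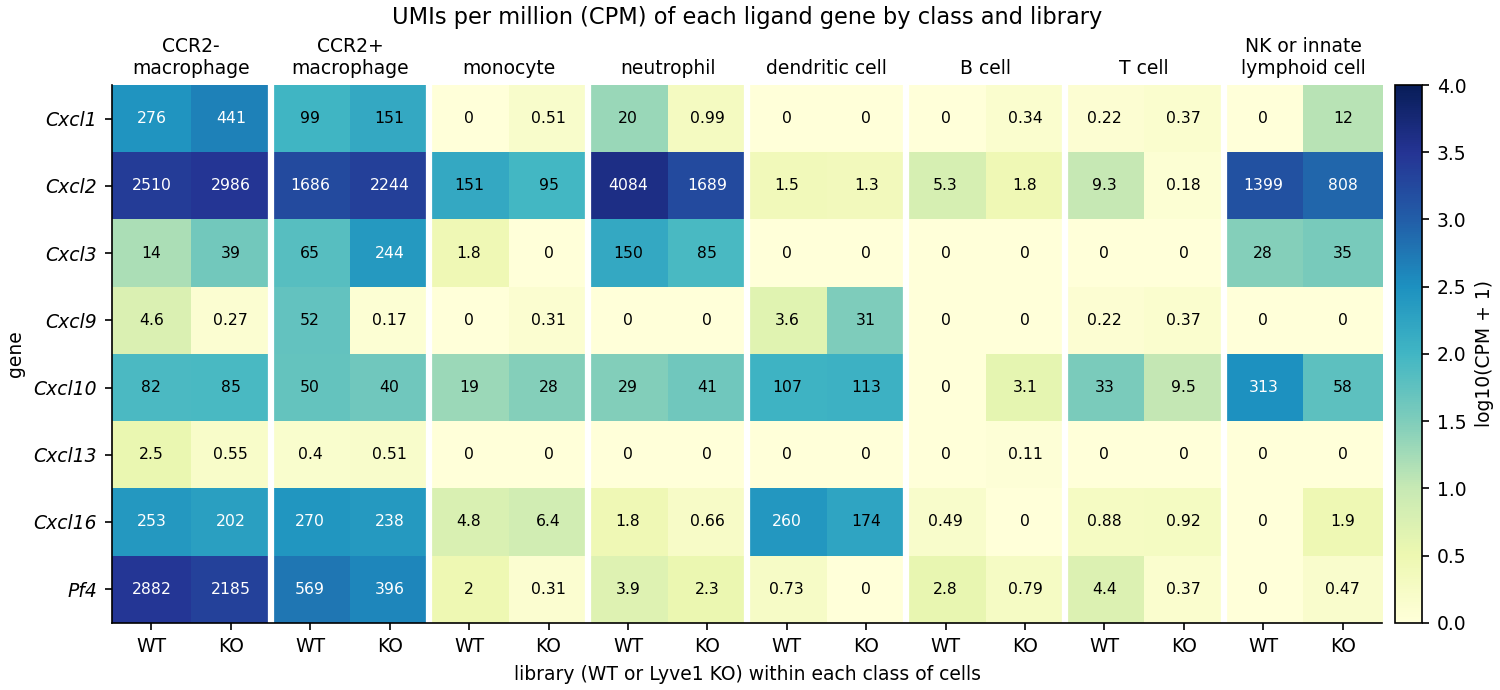
Heat map of the level of each of the 8 genes (rows; the number in a field is CPM, its colour log10 of CPM + 1) in the 8 named classes, with the WT and the Lyve1 KO library side by side (columns, 1 library each). Pf4 is at 2882 and 2185 CPM in the CCR2- class and at most 4.41 CPM in the named classes other than macrophages. Cxcl2 spans macrophages, neutrophils and innate lymphoid cells.

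In both macrophage classes Pf4 was lower in KO. The level in the CCR2- class was 1.32-fold (95% interval 1.30 to 1.34) lower in KO, a log2 ratio of KO to WT of -0.40. All log2 ratios here were taken after adding 10 CPM to each level, which understates differences of low genes. Pf4 was lower in KO in all 7 CCR2- clusters, with log2 ratios between -0.41 and -0.02, the smallest difference being in the cluster led by Cd207, Vsig4 and Clec4f, where the intervals of both libraries overlapped. In the largest, led by Olfml3, Fcrls and Gpr34, it was at 2948 CPM in WT and 2228 in KO, and in the one led by Ccl8, Cd209f and Lyve1 at 3364 CPM in WT and 2535 in KO. The cluster led by Saa3, Prg4 and Marco had the lowest Pf4 of the 7 in both libraries, 1754 CPM in WT and 1548 in KO. Cells taken as male gave a log2 ratio of -0.39 and cells taken as female -0.48. With the cluster shares of KO set to those of WT the ratio was -0.34. In each of these readings Pf4 was lower in KO by less than the 2-fold limit used for counting. In the CCR2+ class the log2 ratio was -0.51, with -1.10 in male and 0.12 in female cells, so that the direction there was not shared by both sexes.

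**Figure D2:**
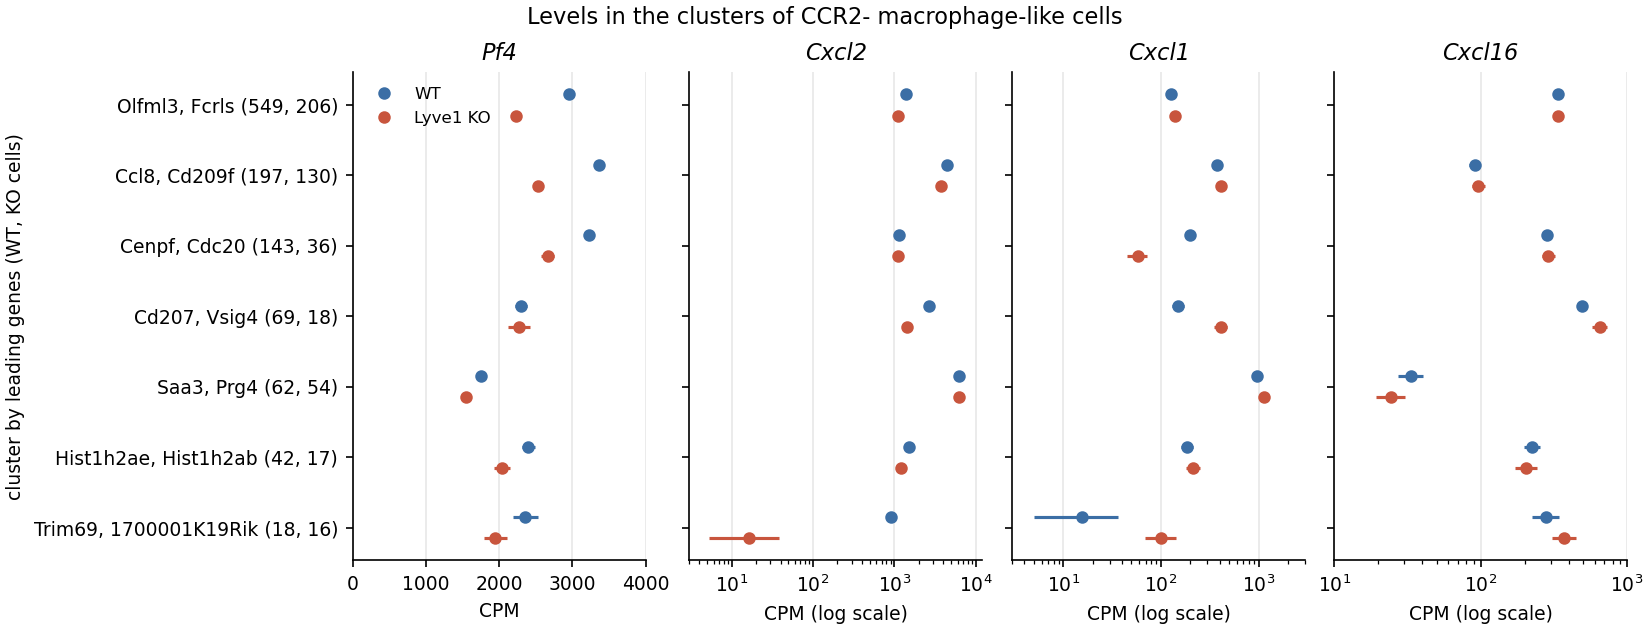
Levels of Pf4 (CPM, linear axis) and of Cxcl2, Cxcl1 and Cxcl16 (CPM, log axes) in the 7 clusters of CCR2- macrophage-like cells, 1 point per library with its 95% counting interval; the number of WT and KO cells stands beside each cluster. Pf4 is lower in KO in every cluster, whereas Cxcl1 and Cxcl2 are highest and Cxcl16 lowest in the Saa3, Prg4 and Marco cluster.

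Cxcl2 was the most widely spread of the CXCR2 ligands. In WT its order was neutrophil-like cells, 4084 CPM (95% interval 4009.7 to 4159), CCR2- macrophage-like cells, 2510.3 (2492 to 2529), CCR2+ macrophage-like cells, 1686 (1650.3 to 1722), and NK or innate lymphoid cell-like cells, 1399 (1337 to 1464), with monocyte-like cells next at 151 (143 to 160.3). In KO the CCR2- class came first at 2986 CPM (2958 to 3014), then the CCR2+ class at 2244 (2206 to 2282), neutrophil-like cells at 1689 (1643 to 1736), NK or innate lymphoid cell-like cells at 808 (769.7 to 847) and monocyte-like cells at 95.1 (89.1 to 101). No neighbours among these 5 had overlapping intervals in either library. Neutrophils were first in WT and behind both macrophage classes in KO, and their level was 2.42-fold (95% interval 2.34 to 2.50) lower in KO.

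Within the neutrophils Cxcl2 depended on the cluster. Neutrophils are the first leukocytes to enter an infarct, and the cells led by Acod1, Il1rn and Csf1 are marked by genes of activated neutrophils. This cluster was at 15854 CPM in WT and 11294 in KO, the larger one led by Asprv1, Csta3 and Stfa1 at 2019.4 CPM in WT and 1126 in KO, and the one led by the granule genes Ngp, Camp and Ltf at 28.1 CPM in WT and 54.3 in KO. Cxcl2 was lower in KO in the first and second of these, with log2 ratios of -0.49 and -0.84. The Acod1 cluster also made up fewer of the neutrophils, 22% in WT (77 cells) and 11.6% in KO (39 cells), and held 69.2% and 55.0% of the Cxcl2 UMIs of the class. The log2 ratio of the class was -1.27 (-1.33 to -1.20 from the ends of the intervals of both levels) as measured. With cluster shares held at those of WT it was -0.58, so that it stayed in the same direction and was no longer past 2-fold. Male and female cells gave -1.29 and -1.32, the female value from 26 WT and 35 KO cells. Only 148 WT and 110 KO neutrophils were taken as male, and neutrophils not taken as either sex entered neither value. The share of thinned neutrophils with a Cxcl2 UMI was 53.0% (152 of 287 cells) in WT and 37.1% (109 of 294 cells) in KO, against 0.888% and 0.679% of B cell-like cells.

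In CCR2- macrophage-like cells Cxcl2 was 1.19-fold (95% interval 1.18 to 1.20) higher in KO over the class, but lower in KO in 6 of its 7 clusters. In the cluster of dividing cells led by Cenpf and Cdc20 the interval of the ratio of KO to WT, 0.905 to 1.02, included equal levels. The Saa3, Prg4 and Marco cluster was nearly level, at 6239.8 CPM in WT and 6318 in KO. Its share of the class was 5.74% in WT (62 cells) and 11.3% in KO (54 cells), and it held 26.2% and 47.1% of the Cxcl2 of the class. The Ccl8, Cd209f and Lyve1 cluster followed at 4490.2 CPM in WT and 3796 in KO, and the Olfml3 cluster was lower at 1389 CPM in WT and 1116 in KO. With cluster shares held at those of WT, the log2 ratio went from 0.25 to -0.21. It was 0.58 in male and -0.23 in female cells. The direction over the class was thus not that of most of its clusters. The most unequal was the smallest cluster, led by Trim69, at 900.0 CPM in 18 WT cells and 16.2 CPM in 16 KO cells. In the Saa3 cluster itself the 10 macrophage markers summed to 25193 CPM in WT and 15592 in KO and the 10 monocyte markers to 1087 and 2155, with no gene of either list at 0; their part in its chemokine levels was not tested.

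Cxcl1 was concentrated in the macrophages. Of all its UMIs, 91.4% in WT and 85.0% in KO lay in the CCR2- class. There it was at 276 CPM in WT (95% interval 269.8 to 282) and 441 in KO (429.8 to 451), which is 1.60-fold (95% interval 1.54 to 1.65) higher in KO. The Saa3, Prg4 and Marco cluster again stood highest, at 958 CPM in WT and 1141 in KO, and held 36.6% and 57.6% of the Cxcl1 of the class. Cxcl1 was higher in KO in 6 of the 7 clusters, and lower in the dividing cells led by Cenpf and Cdc20, at 199.99 CPM in WT and 57.8 in KO. The ratio of KO to WT had an interval that included equal levels in the Olfml3 cluster (0.9997 to 1.20) and in the one led by Hist1h2ae (0.92 to 1.43). The Trim69 cluster held 36 Cxcl1 UMIs in all. With cluster shares held at those of WT the log2 ratio went from 0.66 to 0.12. It was 0.93 in male cells and -0.11 in female cells. Neutrophil-like cells carried Cxcl1 at 20.1 CPM (WT) and 0.993 CPM (KO) (57 and 3 UMIs), and the Acod1 cluster alone was at 109 CPM in WT. CCR2+ macrophage-like cells were at 99.1 CPM in WT (95% interval 90.6 to 108) and 151 in KO (142 to 162), with 84.0% and 90.4% of these UMIs in the 10 highest cells and a log2 ratio of -1.07 in male and 1.75 in female cells.

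Cxcl3 was carried by few cells. The 13 highest WT cells and the 5 highest KO cells held 50% of its UMIs, where Pf4 took 264 and 110 cells to reach 50%. In CCR2+ macrophage-like cells Cxcl3 was at 65.3 CPM in WT (95% interval 58.4 to 72.7) and 244 in KO (232 to 257), 3.74-fold (95% interval 3.32 to 4.23) higher in KO. A single KO cell held 555 of the 1447 UMIs, and the 10 cells with most held 87.3% in WT and 89.8% in KO. The log2 ratio was 1.76 with all cells and 1.01 without the 5 highest cells of each library. It was 0.96 in male cells and 3.07 in female cells.

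In CCR2- macrophage-like cells Cxcl3 was at 14.5 CPM in WT (95% interval 13.1 to 16.0) and 39.1 in KO (36 to 42.5), 2.70-fold (95% interval 2.37 to 3.07) higher in KO. The log2 ratio, 1.004 with all cells, was 0.38 without the 5 highest cells of each library and 0.38 with WT cluster shares. It was 1.47 in male cells and -0.11 in female cells. The value with all cells stood at the 2-fold limit, which was passed in 6 of 11 alternatives. The Saa3, Prg4 and Marco cluster held 61.0% of the Cxcl3 of the class in WT and 83.3% in KO, at 83.8 CPM in WT and 146 in KO. Neutrophil-like cells were at 150.5 CPM in WT (95% interval 137 to 165) and 85.0 in KO (75.0 to 96.1), a log2 ratio of -0.76, and the Acod1 cluster alone was at 817 CPM in WT and 949 in KO. That ratio was 0.21 with WT cluster shares and -2.11 without the 5 highest cells of each library, so that its direction was not stable. It was -0.89 in male and 0.67 in female cells, the latter from 2 UMIs in 26 WT cells and 7 in 35 KO cells. Of all Cxcl3 UMIs, neutrophils held 34.3% in WT and 10.8% in KO, and the CCR2+ class 26.6% and 61.0%.

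**Figure D3:**
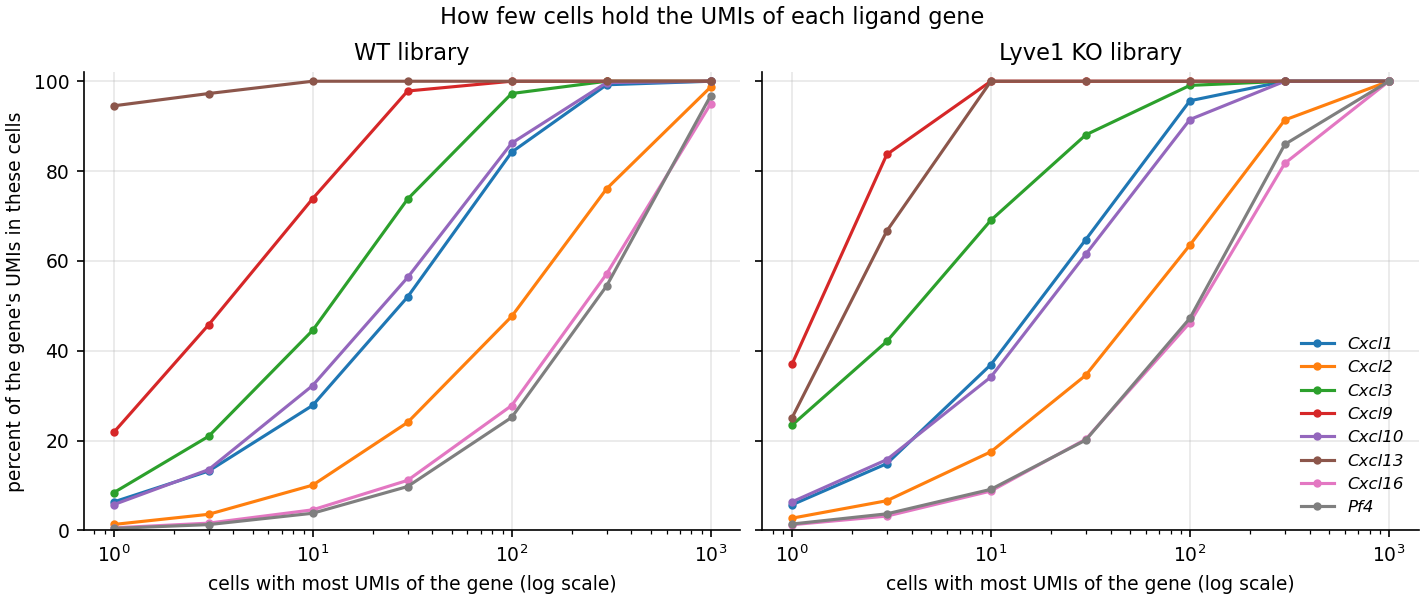
Share of a gene's UMIs (vertical axis, percent) held by its highest cells (horizontal axis, number of cells, log axis) in each library. Points stand at 1, 3, 10, 30, 100, 300 and 1000 cells. Cxcl3, Cxcl9 and Cxcl13 reach 50% within 13 cells in either library, and Pf4 and Cxcl16 need at least 110.

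Lymphoid cells also held Cxcl2. The cluster of innate lymphoid genes Areg, Il5 and Csf2, cytokines of type 2 cells, stood at 2036 CPM in WT and 1273 in KO (47 and 55 cells). Of these UMIs 10 cells held 93.7% in WT and 90.7% in KO, and the 10 macrophage markers summed to 18.1 and 12.7 CPM in the cluster. Over the NK or innate lymphoid class the log2 ratio of Cxcl2 was -0.79, and 0.11 without the 5 highest cells of each library. Cxcl3 was at 27.8 CPM in WT and 35.1 in KO in the class, a log2 ratio of 0.25 (-0.36 to 0.86). A cluster of mast cell genes, Cma1, Tpsb2 and Mcpt4, was at 1718 CPM in 30 WT cells and had 0 UMIs in 15 KO cells, which allows a level of up to 14.8 CPM (3 counts). T cell-like cells were at 9.26 and 0.183 CPM and B cell-like cells at 5.34 and 1.81 CPM. In monocyte-like cells Cxcl2 was low beside the macrophages, at 151 CPM in WT and 95.1 in KO. The cluster led by S100a8 and Ly6c2, genes of classical monocytes, was at 133 CPM in WT and 76.0 in KO, and the one led by Ace, a gene of patrolling monocytes, at 194 CPM in WT and 129 in KO.

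Cxcl9 was counted in 39 WT cells and 9 KO cells of any kind. In WT the CCR2+ macrophage-like cells were at 52.2 CPM (95% interval 46.1 to 58.9), from 264 UMIs in 20 of 213 cells. In KO 1 UMI was counted in 190 cells, and the ratio of WT to KO was 309 (95% interval 55.0 to 12262), or -2.61 as a log2 ratio of KO to WT with 10 CPM added (-2.78 to -2.36). Without the 5 highest cells of each library it was -1.70, and in male and female cells -1.01 and -2.94. The male value rested on 29 WT and 0 KO UMIs and the female value on 140 and 1. UMIs of cells not taken as either sex entered neither value. CCR2- macrophage-like cells had 130 UMIs in WT, 90 of them in 1 cell, and 4 in KO, and the log2 ratio of -0.51 was -0.01 without the 5 highest cells. Dendritic cell-like cells were higher in KO, with 5 UMIs in WT and 47 in KO, all of them in the cluster led by Clec9a, Ifi205 and Xcr1, genes of cross-presenting dendritic cells. Their levels were 3.63 CPM (1.18 to 8.46) and 31.5 CPM (23.1 to 41.9), from 3 and 3 cells, and 1 KO cell held 28 UMIs. This pair stayed under the 100 UMIs that a gene needed to be counted. Cells that kept no name held 13 Cxcl9 UMIs in WT (3.15% of all) and 35 in KO (38.0%). Among them, the cluster led by Fabp4, Sparc and Col4a1 was at 7.16 CPM in 25 WT cells and 37.1 CPM in 35 KO cells. The highest KO cell of the library held 34 UMIs, more than the 28 of the highest dendritic cell-like cell. The 4 highest WT cells and the 2 highest KO cells of the libraries held 50% of all Cxcl9 UMIs.

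Cxcl10 was found in more kinds of cells than Cxcl9. Dendritic cell-like cells were at 107 CPM in WT (95% interval 90.1 to 125) and 113 in KO (96.2 to 131), and within them the Clec9a cluster at 168 CPM in WT and 162 in KO. CCR2- macrophage-like cells were at 82 CPM in WT (95% interval 78.7 to 85.4) and 85.4 in KO (80.7 to 90.3), and CCR2+ macrophage-like cells at 50.3 CPM in WT (95% interval 44.3 to 56.8) and 40.2 in KO (35.2 to 45.6). The intervals of both libraries overlapped in the CCR2- class and in the dendritic cells. Among the dendritic cells, however, only 4 WT and 3 KO cells had a Cxcl10 UMI. There 1 WT cell held 127 of 147 UMIs and 1 KO cell 150 of 168. Monocyte-like cells were at 19.1 CPM in WT and 27.6 in KO and neutrophil-like cells at 29.0 CPM in WT and 41.0 in KO, with log2 ratios of 0.37 and 0.39. Of the monocyte clusters, the one led by Ace was at 8.12 CPM in WT and 39.7 in KO. The one led by S100a8 and Ly6c2 was at 23.7 CPM in WT and 20.8 in KO. In monocyte-like cells 1 WT cell held 118 of 150 UMIs, and the log2 ratio was 1.83 in male and -0.94 in female cells. In neutrophil-like cells it was 0.68 in male and -1.61 in female cells and -0.50 without the 5 highest cells of each library. The female value there rested on 8 UMIs in WT and 1 in KO. Neither class showed the same direction in both sexes, with the female neutrophils near the limit of counting. In the Acod1 cluster of neutrophils Cxcl10 was at 151 CPM in WT and 482 in KO, from 9 and 5 cells with a UMI, and 1 KO cell held 68 of 120 UMIs.

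Both Cxcl10 differences past 2-fold were in lymphoid cells and rested on few of them. NK or innate lymphoid cell-like cells were at 313 CPM in WT (95% interval 284 to 344) and 58.3 in KO (48.5 to 69.6), 5.36-fold (95% interval 4.38 to 6.61) lower in KO. The 10 highest cells held 99.8% of the UMIs in WT and 98.4% in KO, 1 WT cell held 205, and the log2 ratio went from -2.24 to -0.06 without the 5 highest cells of each library. T cell-like cells were at 33.3 CPM in WT (95% interval 28.2 to 39.0) and 9.54 in KO (7.12 to 12.5), 3.49-fold (95% interval 2.53 to 4.88) lower in KO. There 1 WT cell held 99 of 151 UMIs, and the log2 ratio went from -1.15 to 0.16 without the 5 highest cells. Neither class was past 2-fold without its 5 highest cells. The NK or innate lymphoid class had a Cxcl10 UMI in 11 WT and 12 KO cells. Its log2 ratio was -2.15 in male and -2.38 in female cells and past 2-fold in 10 of 11 alternatives. The clusters of this class differed in direction. The one led by Areg, Il5 and Csf2 was at 450 CPM in WT and 57.6 in KO. The one led by the NK cell genes Gzma, Ccl5 and Nkg7 was higher in KO, at 11.7 CPM in WT and 59.6 in KO, from 51 UMIs in all. In T cell-like cells the ratio was -2.58 in male and 0.91 in female cells, and past 2-fold in 7 of 11.

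Cxcl13 was close to the limit of counting. The WT library held 71 UMIs of it in CCR2- macrophage-like cells, of which 69 came from 1 cell of the Saa3, Prg4 and Marco cluster, and the KO library held 8. B cells, which carry its receptor Cxcr5 (277 CPM in WT, 253 in KO), had 0 and 1 UMIs of Cxcl13.

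Cxcl16 was carried by macrophages and dendritic cells and hardly by monocytes. CCR2+ macrophage-like cells were at 270.3 CPM in WT (95% interval 256 to 285) and 238 in KO (226 to 251), CCR2- macrophage-like cells at 253 CPM in WT (95% interval 247 to 259) and 202 in KO (194 to 209), and dendritic cell-like cells at 260.3 CPM in WT (95% interval 234 to 289) and 174 in KO (154 to 197). In WT the intervals of the dendritic cells overlapped those of both macrophage classes. Monocyte-like cells were at 4.83 CPM in WT and 6.42 in KO, neutrophil-like cells at 1.77 CPM in WT and 0.662 in KO, and no lymphoid class exceeded 1.90 CPM. Thinned to 5000 UMIs, 59.6% (631 of 1059 cells) of CCR2- macrophage-like cells carried it in WT and 52.1% (243 of 466 cells) in KO, against 0.296% and 0% of B cell-like cells. Unthinned, the shares were 88.0% and 84.3%, against 0.701% and 0%.

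Cxcl16 differed between the CCR2- clusters. It was highest in the cluster led by Cd207, Vsig4 and Clec4f, at 493 CPM in WT and 649.9 in KO, and lowest in the Saa3, Prg4 and Marco cluster, at 33.3 CPM in WT and 24.4 in KO. The Olfml3 cluster was at 338 CPM in WT and 335 in KO and the Ccl8 cluster at 90.9 CPM in WT and 96.2 in KO, so that the clusters highest in Cxcl1 and Cxcl2 in WT, those of Saa3 and Ccl8, were the lowest in Cxcl16, an order the other clusters did not follow. Cxcl16 was lower in KO over the class, with a log2 ratio of -0.31, lower in 3 of the 7 clusters and higher in 4, and at 0.04 with WT cluster shares. The log2 ratio was -0.64 in male and 0.07 in female cells. Its receptor Cxcr6 was found in NK or innate lymphoid cell-like cells (588 CPM in WT, 624 in KO) and T cell-like cells (166 and 173 CPM). Both shedding proteases, Adam10 and Adam17, were measured, and neither passed 2-fold in a class where it had enough UMIs. In the dendritic cells led by Fscn1, Cacnb3 and Il4i1, genes of mature migratory cells, Cxcl16 was at 906 CPM in 22 WT cells and 359.7 CPM in 5 KO cells. The Clec9a cluster was nearly level, at 179 CPM in WT and 175 in KO, and the cluster led by Siglech was at 3.47 and 0 CPM. Over the dendritic class the log2 ratio was -0.55, and -0.09 in male cells. The 10 highest dendritic cells held 74.4% of the Cxcl16 UMIs of the class in WT and 81.2% in KO. An unnamed cluster led by Cd209a and Ccl17, genes of conventional dendritic cells, lay outside the dendritic class. There Cxcl16 was higher in KO, at 135 CPM in 37 WT cells and 192 CPM in 34 KO cells, a log2 ratio of 0.49. The direction over the class was thus not that of this cluster.

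Members were also read within single cells, each thinned to 5000 UMIs. Among WT CCR2- macrophage-like cells with Cxcl1, 93.3% (167 of 179) also had Cxcl2, against 46.7% of the other cells; in KO the shares were 95.5% (106 of 111) and 50.7%. Cells with Cxcl10 had Cxcl2 in 81.9% (86 of 105) of cases in WT, against 51.6% of the rest, and in 81.6% (40 of 49) against 59.0% in KO. Cells with Cxcl16 had Cxcl2 less often than the rest, 49.4% (312 of 631) against 62.1% in WT and 55.6% (135 of 243) against 67.7% in KO. In neutrophil-like cells of WT, 100% (24 of 24) of the cells with Cxcl3 had Cxcl2, against 48.7% of the rest. The part of the stretch shared by the transcripts of these genes was not tested. Cells of 1 library share their animals and their preparation, and these shares are descriptions.

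Over the 16 profiles of a class in a library, the genes most like each of 4 members were found among 10477 genes as a description, since the classes share libraries. Pf4 was most like Ccl12 (Pearson r 0.998), Fcrls (0.997) and Ccl7 (0.997), of which Ccl12 and Ccl7 encode CC chemokines. Cxcl2 was most like Nfkbiz (0.944), an NF-kB regulator, Ccrl2 (0.926) and Nlrp3 (0.902), an inflammasome sensor. Cxcl16 was most like Sh3pxd2b (0.989), Cttnbp2nl (0.985) and Gatm (0.983). Cxcl10 had no gene as close, with Arhgap18 at 0.879, Gpr65 at 0.866 and C1qtnf12 at 0.840.

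Counted over all classes, 26 of the 64 pairs of a member and a class had at least 100 UMIs over both libraries, of which 2 were higher in KO and 4 lower by a log2 ratio of at least 1. In CCR2- macrophage-like cells 1 of 7 members was past the limit (Cxcl3, higher), where 0.509% of all genes were. In CCR2+ macrophage-like cells 2 of 7 were (Cxcl3 higher, Cxcl9 lower), beside 0.564% of all genes. Monocyte-like cells had 0 of 3 (0.216% of all genes), dendritic cell-like cells 0 of 2 (1.63%), and B cell-like cells had no member with enough UMIs (0.676%). Neutrophil-like cells had 1 of 3 (Cxcl2, lower; 0.927%), T cell-like cells 1 of 1 (Cxcl10, lower; 1.39%), and NK or innate lymphoid cell-like cells 1 of 3 (Cxcl10, lower; 1.32%). With so few members in a class, 1 gene decides each of these shares. The median log2 ratio of the measured members was 0.05 in the CCR2- class, -0.18 in the CCR2+ class and -0.76 in neutrophil-like cells, beside -0.07, -0.02 and -0.02 over all genes.

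**Figure D4:**
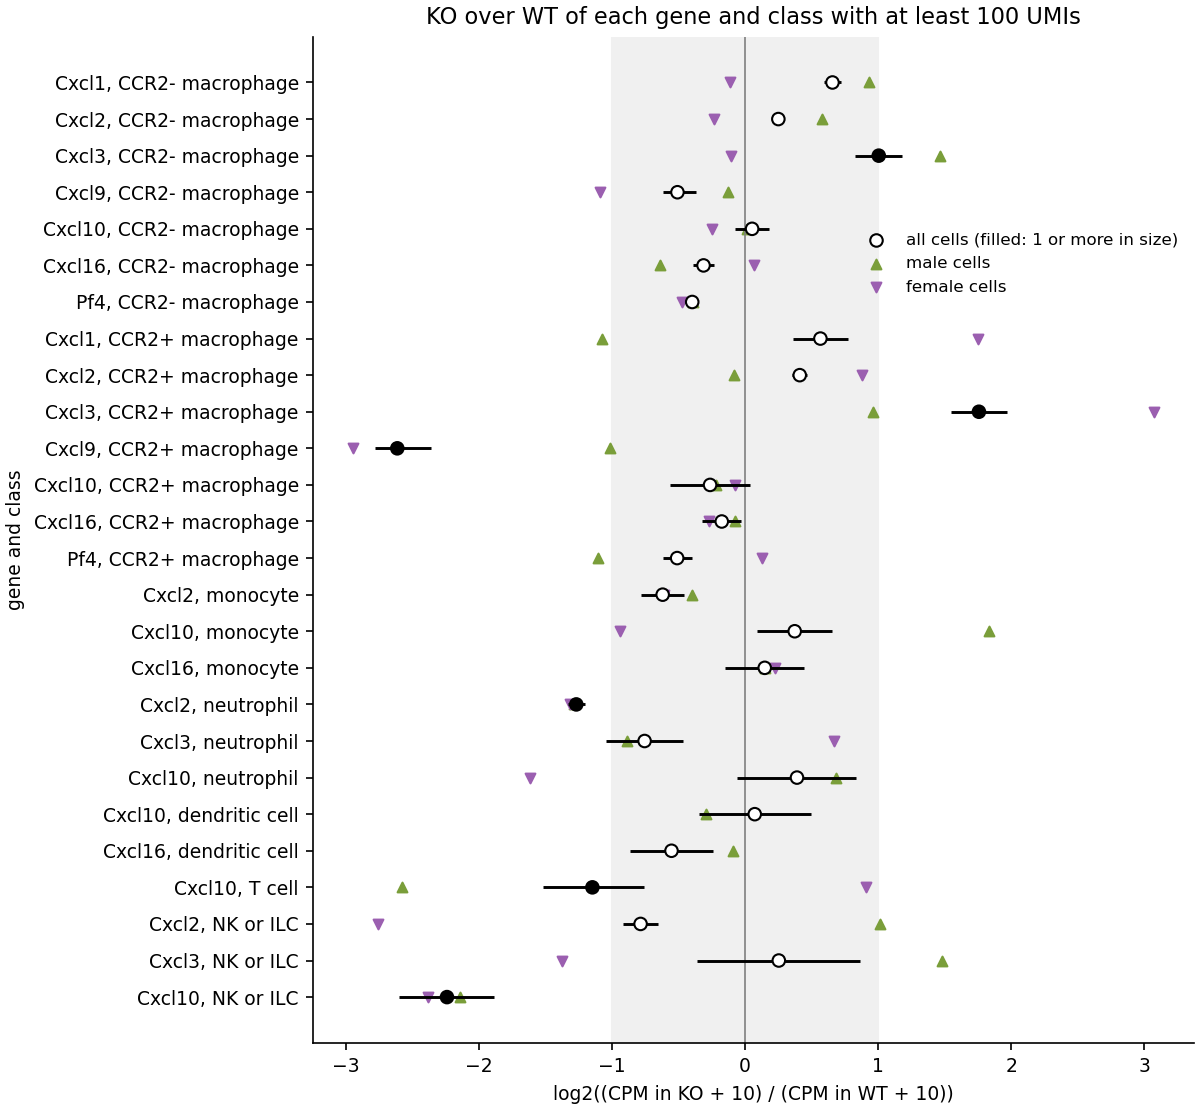
Log2 ratio of KO to WT (horizontal axis, 10 CPM added to each level) for the 26 pairs of a gene and a class with at least 100 UMIs (rows). Circles are all cells, filled where the ratio is at least 1 in size (outside the grey band). Their bars join opposite ends of the 95% counting intervals of both levels. Triangles are male and female cells where each library had at least 20. Cxcl2 in neutrophil-like cells and Cxcl9 in CCR2+ macrophage-like cells lie below -1 in both sexes, and Cxcl10 in T cell-like cells lies at -2.58 in male and 0.91 in female cells. Female neutrophil-like cells were 26 in WT and 35 in KO. Male CCR2+ macrophage-like cells held 29 Cxcl9 UMIs in WT and 0 in KO.

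The genes of the surrounding pathways were read from fixed lists, with no test of a list. Of 13 genes that take part in NF-kB signalling or are induced with it, the neutrophil-like cells had 3 lower by at least 2-fold among 13 with enough UMIs and 0 higher, with a median log2 ratio of -0.82. Those lower were Ccl3, a CC chemokine (-1.59), Icam1, an adhesion molecule (-1.15), and Tnfaip3, an inhibitor of NF-kB (-1.13), and Zfp36, which degrades cytokine transcripts, was at 0.27. The list summed to 29180.2 CPM in WT and 20015 in KO in the Acod1 cluster, which made up fewer of the KO neutrophils, and to 10257 and 9928 in the larger Asprv1 cluster. The same list had medians of 0.13, -0.21 and -0.17 in CCR2-, CCR2+ and monocyte-like cells, with 0 of 13 past 2-fold in each. In the lymphoid classes CC chemokines of the list stood higher in KO, Ccl4 in B cell-like cells (1.003) and in NK or innate lymphoid cell-like cells (1.501), and Ccl3 in T cell-like cells (1.44), each the single gene of the list past 2-fold in its class. Of all genes, 0.927% were past 2-fold in neutrophil-like cells, 0.509% in CCR2-, 0.564% in CCR2+ and 0.216% in monocyte-like cells. The shares were 0.676% in B cell-like, 1.32% in NK or innate lymphoid cell-like and 1.39% in T cell-like cells.

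Of 13 interferon response genes, 11 could be read in CCR2+ macrophage-like cells, where Cxcl9 was lower. Their median log2 ratio was -0.41, and 1 was lower by at least 2-fold: Gbp2, a guanylate-binding protein (-1.33). The transcription factors Irf8 and Irf1 were at -0.74 and -0.72. Medians of this list were -0.25 in CCR2- macrophage-like cells, -0.01 in monocyte-like cells, -0.24 in neutrophil-like cells and -0.61 in dendritic cell-like cells, where 2 of 9 were lower by at least 2-fold, Isg15, a ubiquitin-like protein induced by interferon (-1.82), and Gbp2 (-1.65). In NK or innate lymphoid cell-like cells, where Cxcl10 was lower over the class, the median was 0.03. There 2 of 10 genes were lower by at least 2-fold, Isg15 (-1.46) and Irf8 (-1.14). In T cell-like cells, where Cxcl10 was also lower, the median was 0.34, and in B cell-like cells it was 0.002. In neutrophil-like cells 1 of 9 genes was lower by at least 2-fold, Ifit1 (-1.21). No gene of the list was past 2-fold in CCR2- macrophage-like, monocyte-like, B cell-like or T cell-like cells. The lowest and highest 5% of all genes began at log2 ratios of -0.38 and 0.29 in the CCR2+ class and of -0.51 and 0.41 in the neutrophils. They began at -0.66 and 0.42 in dendritic cell-like cells and at -0.43 and 0.51 in NK or innate lymphoid cell-like cells. Of all genes, 0.564% were past 2-fold in the CCR2+ class and 0.927% in the neutrophils. The shares were 1.63% in dendritic cell-like cells and 1.32% in NK or innate lymphoid cell-like cells.

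Tissue dissociation also induces early response genes, and 11 such genes were read beside the members. They summed to 12888 CPM in WT and 10875 in KO in the CCR2- class, 9915 and 10104 in the CCR2+ class, and 10730.5 and 13864 in neutrophil-like cells. None passed 2-fold in these 3 classes. In the neutrophils, where Cxcl2 was lower in KO, their median log2 ratio was 0.29, the opposite sign. The part of dissociation in the members' levels was not tested.

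**Figure D5:**
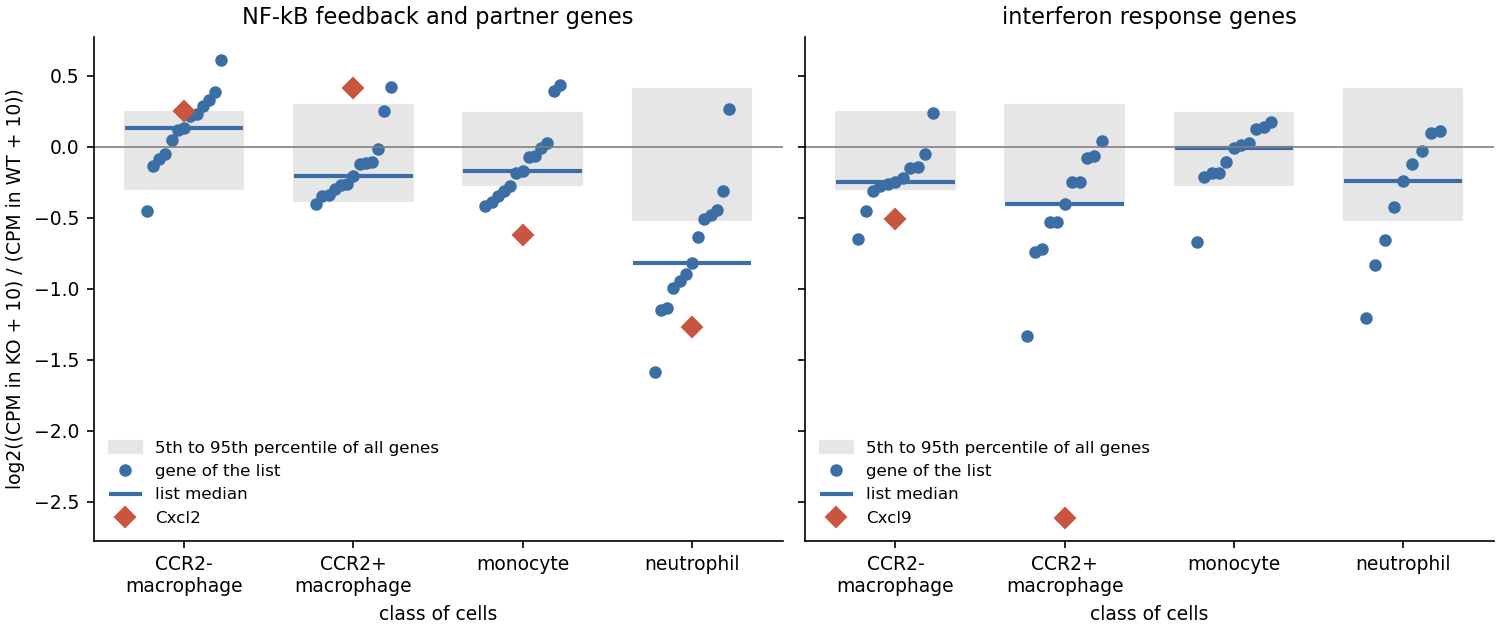
Log2 ratio of KO to WT (vertical axis, 10 CPM added) in 4 classes for the NF-kB list beside Cxcl2 (left) and the interferon list beside Cxcl9 (right): 1 point per gene with at least 100 UMIs, a bar at the median of the list, a diamond for the chemokine and a grey field for all genes without their lowest and highest 5%. In neutrophil-like cells Cxcl2 is at -1.27 and the NF-kB median at -0.82, and in CCR2+ macrophage-like cells Cxcl9 is at -2.61 and the interferon median at -0.41.

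The 8 CXC receptor genes were all in the table, and of those with enough UMIs none passed 2-fold in any of the 8 classes. Cxcr2, the receptor of Cxcl1, Cxcl2 and Cxcl3, was at 912 CPM in WT and 951 in KO neutrophil-like cells. Cxcr3, the receptor of Cxcl9 and Cxcl10, was at 48.4 and 55.0 CPM in NK or innate lymphoid cell-like cells, and at 66.7 and 46.2 in dendritic cell-like cells. In the CCR2- class Ackr3, a scavenging receptor, had a log2 ratio of 0.78, from 12.4 CPM (WT) and 28.4 CPM (KO). Of the other CXCL ligands 6 of 7 symbols were in the table. In CCR2+ macrophage-like cells Ppbp stood lower in KO, 23.0 and 5.40 CPM, and Cxcl14, a chemokine of epithelia and stroma, was higher, 5.94 and 25.3 CPM.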

How the data were processed

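The deposited matrices hold counts of UMIs per gene and cell, made by the authors with Cell Ranger (8.0.1 per the file headers) on the mm10 build from Chromium 5′ libraries of sorted live CD45+ cells, 1 library per genotype. From these counts, cells under 500 genes or 250 UMIs, or with over 30% of UMIs from mitochondrial genes, were removed, and the barcodes with the highest Scrublet scores were left out (0.4% per 1000 barcodes, 98 in WT and 73 in KO), since the automatic limit marked only 1 and 4. Cells were clustered with Seurat 5.3.0 (R 4.3.3, 2000 variable genes, 30 dimensions, resolution 0.8) without the members and pathway lists, and named from marker lists. Clusters of low depth or with markers of another list in the lead stayed unnamed. The cluster led by Cma1, Tpsb2 and Mcpt4 did pass the naming rule, but lay outside the 8 classes and was counted with the unnamed cells. UMIs were summed per library and class and scaled to the UMIs of the class (CPM) with exact Poisson intervals, ratios with exact intervals and shares of cells after thinning each cell to 5000 UMIs, which left out 351 WT and 170 KO cells (Python 3.11.15, scipy 1.17.1). A member was counted as higher or lower where its log2 ratio, after adding 10 CPM, reached 1 or -1, with at least 100 UMIs over both libraries. The members, lists and named genes (members, list genes, the 3 genes most like Pf4, Cxcl2, Cxcl10 and Cxcl16, and leading genes of clusters) were chosen with earlier results of these data known, and the rule for scoring markers was set after seeing the data. The libraries held 67968938 (WT) and 61555917 (KO) UMIs. Sequences came from RefSeq tables and gene positions from GENCODE vM21. Alternatives covered the value added, the UMI minimum, centring, cell limits, doublets, clustering, the 5 highest cells, and male or female cells alone.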

Additional observations from a re-analysis of the deposited data

Results flagged for a closer look

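A gene was singled out where its log2 ratio of KO to WT was at least 1 in size in both male and female cells and of opposite sign. The assignment of cells to single hearts was not used here, and the difference between the sexes was not tested for any of them. Cxcl1 in CCR2+ macrophage-like cells was at -1.07 in male and 1.75 in female cells, and 10 cells held 84.0% of its UMIs in WT and 90.4% in KO. In NK or innate lymphoid cell-like cells Cxcl2 was at 1.01 in male and -2.76 in female cells. Cxcl3 in the same cells was at 1.48 and -1.38, from 10 WT and 59 KO UMIs in male and 27 and 15 in female cells. In this class 10 cells held 93.7% (WT) and 90.7% (KO) of the Cxcl2 UMIs and 100% and 98.6% of those of Cxcl3. Its female WT cells were 22. The part of single cells or single hearts in these values was not tested.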

How the results depend on the processing

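The 2 pairs of a member and a class higher in KO became 4 without a minimum of UMIs, 1 with no doublet left out, 1 at a clustering resolution of 0.4 (where no cluster gave a CCR2+ class and the dendritic cells fell under 20 KO cells), and 1 without the 5 highest cells of each library. The 4 lower pairs were between 3 and 6 under the alternatives in which pairs were counted again. In cells of 1 sex, other pairs also passed 2-fold. Among them were Cxcl10 in monocyte-like cells (1.83 in male, -0.94 in female cells) and Cxcl2 in NK or innate lymphoid cell-like cells (1.01 and -2.76). Cxcl10 in T cell-like cells reversed to 0.16 without the 5 highest cells and to 0.91 in female cells, and Cxcl3 in CCR2- macrophage-like cells reversed to -0.11 in female cells; the cause was not tested. Cxcl2 in neutrophil-like cells was between -1.32 and -0.58 and past 2-fold in 10 of 11 alternatives, the exception being WT cluster shares, an alternative added after seeing the data. Cxcl9 in CCR2+ macrophage-like cells was between -5.51 and -1.01 and past 2-fold in 10 of 10, and Cxcl3 there between 0.96 and 3.07 and past it in 9 of 10. Each count of alternatives, here and above, includes lifting the UMI minimum, which changes which pairs are counted but cannot change a ratio. In the CCR2+ class, a single cluster, holding cluster shares at those of WT could not change a ratio either. Cxcl10 in NK or innate lymphoid cell-like cells was between -2.47 and -0.06 and past 2-fold in 10 of 11, the exception being without the 5 highest cells. Pf4 in CCR2- macrophage-like cells was between -0.48 and -0.33. No paired analysis was possible because each genotype was 1 library. Values were not split by heart, and those resting on few UMIs are limited by depth.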

Other observations

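Some members were also found in cells that kept no name. A cluster led by Cd209a and Ccl17, genes of conventional dendritic cells, carried Cxcl16 at 135 CPM in WT and 192 in KO and Cxcl2 at 119 CPM in WT and 10.6 in KO.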
